A study of Homo sapiens with 16 samples.

Results

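TCCSUP is an established human cell line derived from a transitional cell carcinoma of the urinary bladder, and its untreated transcriptome was compared here with those of 253J, J82 and RT112, which are also established bladder cancer lines. The members were the 2 TCCSUP vehicle control libraries, chosen by their labels among 8 control libraries and 16 libraries in all, and they were set against the mean of the 3 line means of the other controls. Each line contributed 2 control libraries from wild-type cells kept for 48 h with 0.01% DMSO, the vehicle, and 2 libraries from cells given CM-1758, a histone deacetylase inhibitor, for 48 h at a dose set for that line from its own inhibition curve. The labels give EMEM as the growth medium of TCCSUP and DMEM GlutaMAX for the other lines, all with serum, so that line and medium cannot be told apart. With 2 libraries of 1 line on one side, the p-values below measure the spread between libraries of a line and not the spread between bladder tumours.

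Urothelial cells are held together by E-cadherin, desmosomes and tight junctions, carry keratin filaments and rest on a basement membrane, a sheet of collagen IV and laminin. Carcinoma cells can lose part of this programme and take on properties of connective tissue cells, a change called epithelial-mesenchymal transition (EMT), in which transcription factors of the SNAI, ZEB and TWIST families repress epithelial genes while N-cadherin, vimentin and contractile proteins appear. Connective tissue cells also build the interstitial matrix: fibrillar collagens are secreted as procollagens, trimmed, cross-linked by lysyl oxidases and bound by fibronectin, small proteoglycans and integrins. Bladder cancer lines range from urothelium-like to strongly mesenchymal, and the question here was where TCCSUP stands before any drug.

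Each TCCSUP control library held 28033920 or 28809324 counts, against 27655401 to 32537104 in the 6 other control libraries, and the TMM scaling factors of all 8 ran from 0.941 to 1.11. The 2 libraries of a line correlated at 0.984 to 0.991 (Pearson's r of log2 CPM across the tested genes, as a description), and TCCSUP libraries correlated with J82 at 0.835 to 0.847, with RT112 at 0.750 to 0.753 and with 253J at 0.732 to 0.743. Levels below are CPM, counts scaled to library size after TMM normalization, given for both libraries of a line, and they are compared between lines for 1 gene and not between genes, since CPM is not corrected for gene length. Differences were tested with the quasi-likelihood test of edgeR. The words higher and lower are kept for genes that passed both thresholds, a log2 difference beyond 2 in size and a Benjamini-Hochberg adjusted p below 0.01. Of 35993 genes, 18307 had enough counts to be tested, and TCCSUP was higher for 2089 of them (11.4%) and lower for 820 (4.48%). A mean over lines can be set by 1 of them. For 1362 of the higher calls (7.44% of tested genes) and 610 of the lower calls (3.33%), both TCCSUP libraries lay beyond all 6 others.

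The share of higher calls differed widely between gene lists. Of 27 tested mesenchymal markers, 20 were higher and 3 lower in TCCSUP, with a median log2 difference of 3.64, beside 0.035 over all tested genes. The median was 3.20 with a floor, which set a line without a count in either library at 3 counts per library. Lines with any count kept their own mean. Of 45 tested matrix glycoproteins and proteoglycans, 26 were higher and 1 was lower (median 2.50, or 2.42 with that floor). Of 29 matrix proteases and their inhibitors 15 were higher and 1 was lower (median 2.01, or 1.01 with the floor), and of 9 tested fibrillar collagens 5 were higher and 2 lower (median 5.68, or 4.14). Of 40 junction and polarity genes 6 were higher and 7 lower (median -0.83), none of the 6 outside the range of the others. Of these 40, 13 were higher and 9 lower against 253J, 11 and 5 against J82, and 0 and 28 against RT112. Of the mesenchymal markers 16 were higher and 4 lower against 253J, 11 and 4 against J82, and 24 and 0 against RT112. Over all tested genes 11.5% were higher and 10.2% lower against 253J, 9.95% and 6.29% against J82, and 12.4% and 9.78% against RT112. The list shares, here and below, are descriptions of lists chosen with earlier results of these data known. Those against the mean of the lines are to be read against 11.4% and 4.48% over all tested genes.

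**Figure D1:**
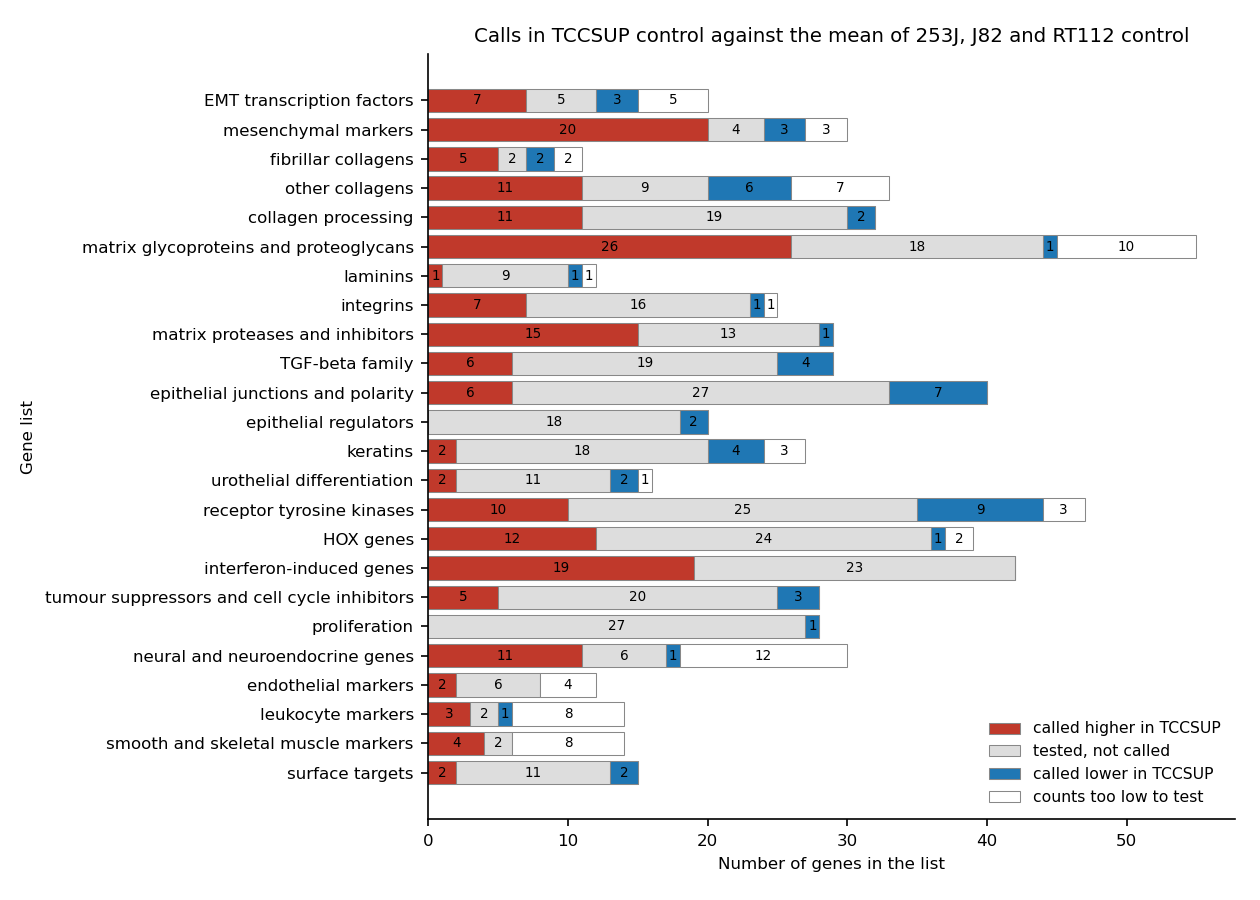
Number of genes (x axis) in each of the gene lists (y axis) that were called higher in TCCSUP control, tested but not called, called lower, or had counts too low to test, against the mean of 253J, J82 and RT112 control. The mesenchymal markers (20 higher, 3 lower) and the matrix glycoproteins (26 higher, 1 lower) held many higher calls, while the epithelial regulators held none and the proliferation genes 1 lower call.

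Fibrillar collagens form the cables of connective tissue, and the chains of collagens I and V did not all lie on the same side. COL1A1, the first chain of collagen I, was at 850 and 1024 CPM in TCCSUP, at 27.9 and 28.6 in 253J, at 2.58 and 1.31 in J82 and at 4.12 and 5.11 in RT112. Both TCCSUP libraries were far above all others, by 7.21 ± 0.18 (approximate SE) on the log2 scale (edgeR quasi-likelihood test, Benjamini-Hochberg adjusted p = 2.64e-09). COL1A2, the partner chain, was at 4802 and 5071 CPM in TCCSUP, at 263 and 182 in J82, and at or below 0.121 CPM in every library of 253J and RT112. It was 22.2-fold higher than in J82 (log2 difference 4.47 ± 0.24), and against 253J, with 2 counts in all, the ratio was 141830 with a 95% counting interval of 39262 to 1171140. COL5A2, a chain of the fibril-nucleating collagen V, was at 4633 and 4596 CPM in TCCSUP, at 859 and 997 in J82 and between 2.33 and 4.37 in 253J and RT112, a difference of 7.79 ± 0.12.

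Its partner COL5A1 went the other way. It was at 0.338 and 0.145 CPM in TCCSUP, at 288 and 179 in J82, at 71.0 and 92.3 in RT112 and at 0 and 0.108 in 253J, so TCCSUP was low like 253J, and the log2 difference was -9.90 ± 0.44 from J82 and -8.38 ± 0.43 from RT112. The collagen V trimer of tissues usually holds both chains, and here the genes for them were on opposite sides of the comparison. COL3A1, the chain of collagen III, was shared with J82. It was at 600 and 648 CPM in TCCSUP, below the 2657 and 2855 CPM of J82, while 253J had no count in either library and RT112 had 1.46 and 1.33 CPM. TCCSUP was 4.42-fold lower than J82 for this gene (log2 difference -2.14 ± 0.15, edgeR quasi-likelihood test, Benjamini-Hochberg adjusted p = 4.93e-06) and 449-fold higher than RT112. COL27A1 was lower, at 3.64 and 3.34 CPM against 14.2 to 55.7 in the other lines. Of the 2 untested members, COL2A1 and COL11A1, no control library held more than 9 counts.

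Of 26 tested collagens outside the fibrillar group, 11 were higher and 6 lower. Collagen VI forms beaded filaments next to cells, and its 3 main chains were all higher. COL6A1 was at 235 and 182 CPM against 12.4 to 36.6 in the 6 other libraries (3.08 ± 0.23), and COL6A3 at 50.2 and 39.1 CPM against at most 5.37 (5.57 ± 0.24). COL6A2 was at 36.1 and 28.1 CPM, near the 22.4 and 27.4 CPM of RT112 and with at most 2 counts over the libraries of each other line. COL16A1, a fibril-associated collagen, was at 127 and 108 CPM against at most 17.6 elsewhere (5.30 ± 0.11). COL12A1, which decorates collagen I fibrils, was at 1439 and 1528 CPM in TCCSUP and at 1198 and 1326 in RT112, with a difference of 1.20 ± 0.14 that was short of the threshold.

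**Figure D2:**
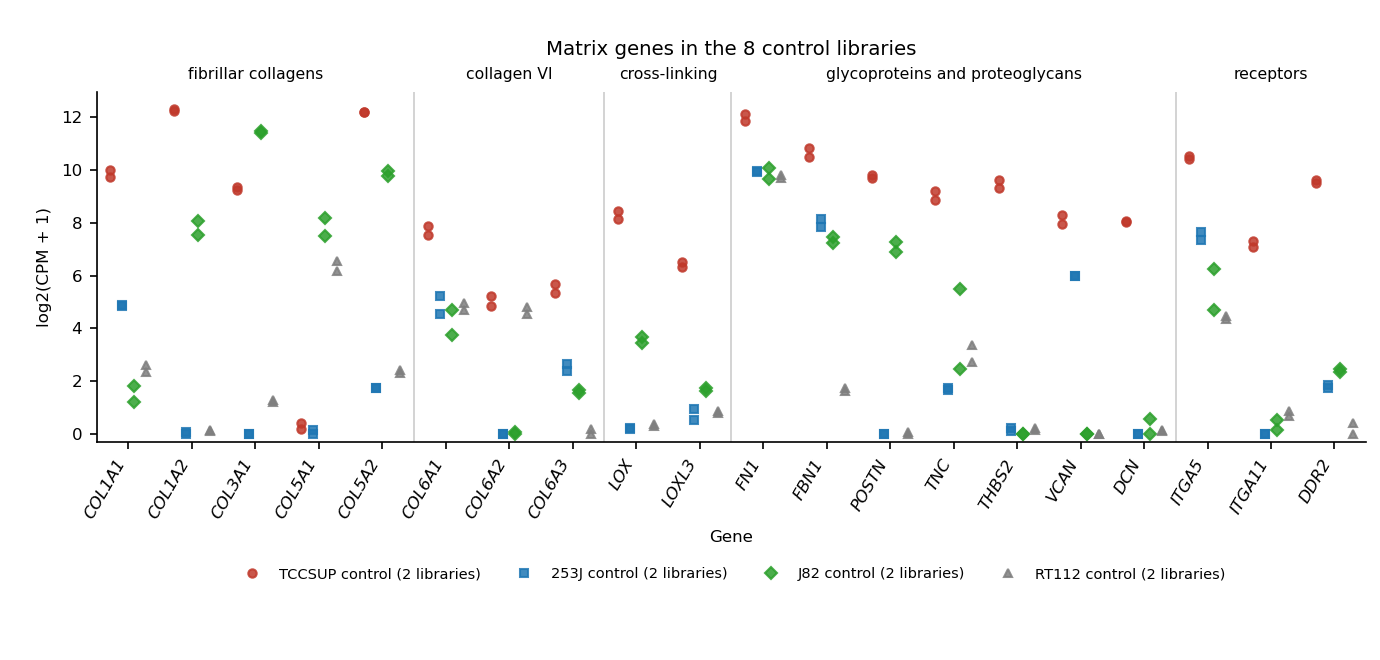
Level of matrix genes (x axis) as log2(CPM + 1) (y axis) in each of the 8 control libraries, with 1 point per library and 2 per line. The TCCSUP points lie above all other lines for COL1A1, COL1A2, COL5A2, LOX, FBN1, THBS2, DCN, ITGA5 and DDR2, below J82 for COL3A1, and near 0 for COL5A1.

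Basement membrane collagen lay on the other side. Collagen IV chains are encoded by 3 pairs of genes, each pair in a head-to-head arrangement that places a shared promoter between the starts, and 5 of the 6 chains were lower in TCCSUP. COL4A1, of the ubiquitous chain pair, was at 9.09 and 6.82 CPM in TCCSUP, at 1882 and 1780 in 253J, at 55.9 and 30.8 in J82 and at 353 and 357 in RT112 (log2 difference -5.26 ± 0.29). COL4A2 was at 14.8 and 12 CPM in TCCSUP, at 1079 and 1180 in 253J, at 231 and 117 in J82 and at 273 and 303 in RT112 (-4.84 ± 0.30). Both chains of this pair were below all 6 other libraries.

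COL4A5, whose product pairs with other minor chains in specialised basement membranes, had 2 counts over both TCCSUP libraries (0 and 0.0726 CPM), against 138 and 169 CPM in 253J, 172 and 184 in J82 and 499 and 470 in RT112. Against 253J, the nearest of the other lines, TCCSUP was 4143-fold lower, with a 95% counting interval of 1146 to 34213. COL4A6, the gene that faces COL4A5 across the shared promoter, did not follow it. COL4A6 was at 4.43 and 2.54 CPM in TCCSUP, at 5.12 to 6.40 in 253J and J82 and at 19.1 and 18.5 in RT112, and was not called (log2 difference -1.28 ± 0.23). The chains of the third pair were low in TCCSUP as well, COL4A3 with at most 0.145 CPM against 0.425 to 8.90 elsewhere, and COL4A4 with 2 counts in all against 1.80 to 103 CPM. The starts of COL4A1 and COL4A2 lie 126 bases apart in RefSeq's GRCh38.p14 annotation, those of COL4A3 and COL4A4 418 and those of COL4A5 and COL4A6 379.

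The promoter sequences of COL4A1 with COL4A2 and of COL4A5 are shown because these 3 genes were low in TCCSUP. Capitals mark matches to CCAAT (reverse strand ATTGG), the CCAAT box, to GGGCGG (reverse strand CCGCCC), the GC box, and to CCCTCCCC (reverse strand GGGGAGGG), called the CTC box here. The first is the whole stretch between the COL4A1 and COL4A2 starts, plus strand, at chr13:110307158-110307283 of GRCh38.p14, and the second the 250 bases before the COL4A5 start, plus strand, at chrX:108439588-108439837, both from RefSeq.
COL4A1-COL4A2: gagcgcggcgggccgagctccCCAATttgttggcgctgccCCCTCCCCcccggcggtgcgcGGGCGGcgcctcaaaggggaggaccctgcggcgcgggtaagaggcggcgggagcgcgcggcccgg
COL4A5: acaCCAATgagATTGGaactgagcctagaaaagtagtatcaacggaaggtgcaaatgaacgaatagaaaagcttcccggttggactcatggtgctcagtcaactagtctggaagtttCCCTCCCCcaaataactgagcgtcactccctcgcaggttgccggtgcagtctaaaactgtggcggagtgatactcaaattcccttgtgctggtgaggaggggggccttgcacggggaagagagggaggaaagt
The COL4A1-COL4A2 stretch held 1 match to each of the 3 motifs, and 80.2% of its bases were G or C, against a median of 60.3% over windows of the same length in 35097 RefSeq promoters. A CCAAT box was found in 21.1% of those windows, a GC box in 34.6% and a CTC box in 8.27%. The COL4A5 window held 2 CCAAT boxes and 1 CTC box, found in 32% and 12.7% of windows of 250 bases, and no GC box, found in 42.6%. Its G and C content was 51.2% against a median of 58%. Neither sequence held TATAAA (reverse strand TTTATA), the TATA box, or CACCTG (reverse strand CAGGTG), the E-box. The TATA box was found in 5.87% of the shorter and 10.7% of the longer windows, and the E-box in 8.74% and 17.5%. A match is a description of the letters and says nothing of a factor's binding.

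**Figure D3:**
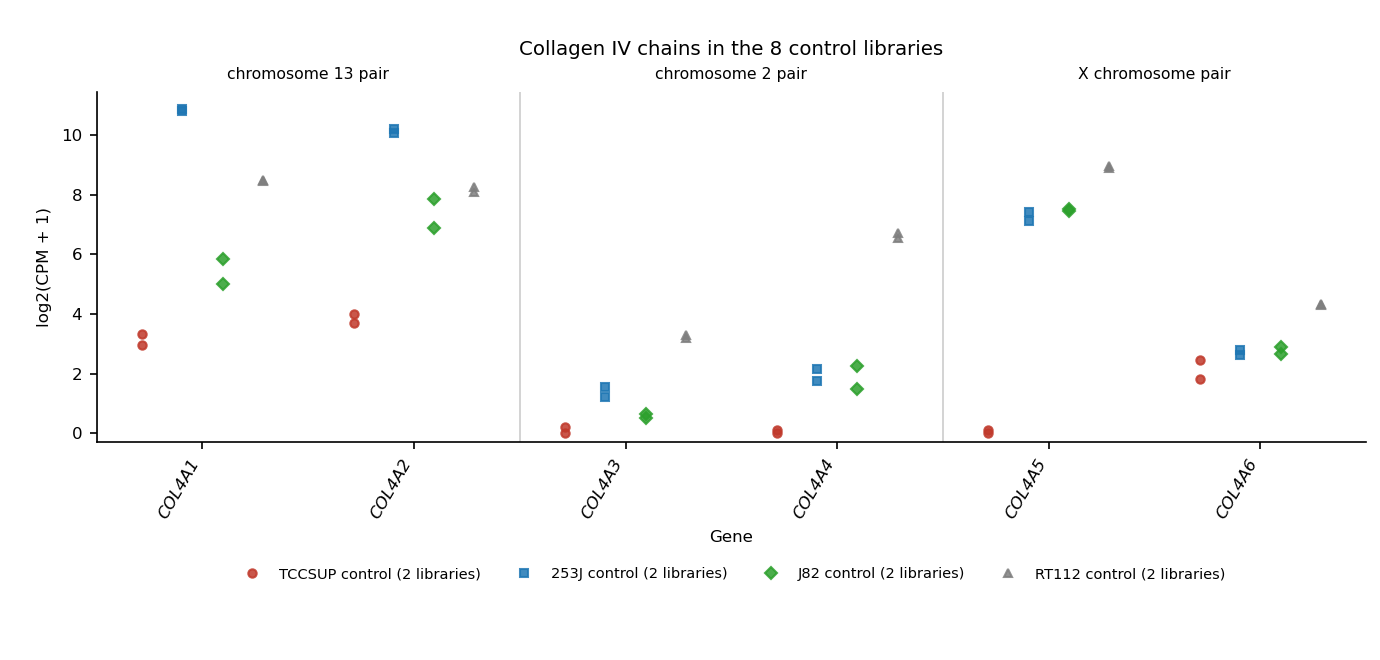
Level of the 6 collagen IV genes (x axis), grouped by their head-to-head pairs, as log2(CPM + 1) (y axis) in each of the 8 control libraries, 1 point per library. The TCCSUP points are below every other line for all 6 genes, near 0 for COL4A3, COL4A4 and COL4A5, and closest to 253J and J82 for COL4A6.

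Other basement membrane genes were mixed. NID1, the linker between collagen IV and laminin, was at 0.263 and 0.545 CPM in TCCSUP against 3.98 to 31.7 in the other lines (-4.97 ± 0.43). Of 11 tested laminins, 1 was higher, 1 was lower and 9 were not called. The higher one was LAMA4, a laminin chain of vessels and mesenchyme, at 1106 and 1024 CPM, against 88.2 and 49.1 in J82, at most 0.347 in RT112 and no count in 253J, 15.6-fold above J82 and at least 10184-fold above 253J. LAMA3 and LAMB3, chains of the epithelial laminin of hemidesmosomes, were not called and lay between the other lines: LAMB3, for example, was at 32.8 and 33.5 CPM against 4.15 to 533. HSPG2, the basement membrane proteoglycan perlecan, was at 112 and 118 CPM, within the range of the other lines, and was not called.

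Of 32 genes for the making and cross-linking of collagen, 11 were higher and 2 lower. Lysyl oxidases, which cross-link secreted collagen, were among the higher ones. LOX was at 282 and 345 CPM against 11.7 and 9.99 in J82 and at most 0.303 in 253J and RT112 (8.63 ± 0.14), and LOXL3 was at 91.0 and 78.3 CPM against at most 2.38 (6.29 ± 0.16). LOXL2 was at 193 and 248 CPM, like 253J (289 and 277) and J82 (229 and 128) and unlike RT112 (0.243 and 0.379). PLOD2, which hydroxylates lysines for cross-links, was at 1497 and 1320 CPM against 54.7 to 677 (2.36 ± 0.10).

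Several genes of procollagen folding and trimming were not called. SERPINH1, the collagen chaperone HSP47, was at 981 and 911 CPM and above all 6 other libraries, at 129 to 460, but its difference of 1.74 ± 0.10 was short of the threshold, as was that of P4HA1, a proline hydroxylase subunit (1.43 ± 0.10), and of BMP1, which removes the procollagen tail (1.67 ± 0.11). P4HB and PPIB differed by -0.06 ± 0.15 and 0.16 ± 0.12. The 2 lower genes were PCOLCE2, an enhancer of procollagen trimming, and ADAMTS2, which removes the procollagen head. PCOLCE2 was at 0.113 and 0 CPM against 123 and 119 in 253J, 7.15 and 5.78 in J82 and 0.364 and 0.252 in RT112. ADAMTS2 was at 0.225 and 0 CPM against 21.8 and 31.0 in 253J, 1.56 and 1.89 in J82 and at most 0.0631 in RT112, while its relative ADAMTS3 was higher, at 40.0 and 36.9 CPM against at most 13.8.

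The glycoproteins and proteoglycans that bind collagen fibrils and cells included several found in TCCSUP and hardly elsewhere. THBS2, a thrombospondin of fibroblasts, was at 626 and 778 CPM in TCCSUP, at most 0.182 in 253J and RT112 and without a count in J82, at least 7048-fold above J82. DCN, the collagen-binding proteoglycan decorin, was at 258 and 269 CPM against at most 0.508 in any other library. POSTN, periostin, was at 822 and 886 CPM against 155 and 118 in J82 and at most 2 counts in each of the other lines, 6.28-fold above J82. TNC, tenascin C, was at 593 and 468 CPM in TCCSUP; J82 had 44.2 and 4.47 CPM, libraries of 1 line that differed widely, and the other lines at most 9.47 (6.15 ± 0.54). For each of these genes both TCCSUP libraries lay above all 6 others.

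Others had counts in every line. FN1, fibronectin, was at 4367 and 3669 CPM against 795 to 1071 in the 6 other libraries (2.13 ± 0.13), and THBS1 at 5310 and 4661 CPM against 465 to 2366 (2.29 ± 0.21). FBN1, the microfibril protein fibrillin, was at 1799 and 1444 CPM in TCCSUP, at 148 to 284 in 253J and J82 and at 2.37 and 2.11 in RT112 (5.17 ± 0.14). VCAN, the large proteoglycan versican, was at 313 and 246 CPM, at 62.4 and 62.7 in 253J and without a count in J82 and RT112. Some calls rested on lines without the gene while another line was as high as TCCSUP: SPARC was at 2406 and 2180 CPM in TCCSUP and at 3356 and 3171 in 253J, and LUM, lumican, at 1021 and 923 CPM in TCCSUP and at 1265 and 1239 in RT112. Of the 10 untested members, ELN, the gene for elastin, had no more than 6 counts in any control library.

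Receptors for this matrix were examined next. Of 24 tested integrins, 7 were higher and 1 was lower. ITGA5, the fibronectin receptor subunit, was at 1474 and 1350 CPM in TCCSUP against 163 and 201 in 253J, 74.5 and 24.6 in J82 and 19.3 and 21.0 in RT112 (4.64 ± 0.28). ITGA11, a collagen receptor of fibroblasts, was at 155 and 135 CPM against at most 0.852 elsewhere, 199-fold above RT112, the highest of the others. Their shared partner ITGB1 was at 7309 and 6420 CPM, above all others at 1140 to 3293, and just short of the threshold (1.97 ± 0.11). DDR2, a receptor tyrosine kinase that fibrillar collagen activates, was at 791 and 720 CPM against 4.47 and 4.05 in J82, 2.39 and 2.63 in 253J and at most 0.334 in RT112 (9.26 ± 0.24), whereas DDR1, the epithelial collagen receptor, was at 152 and 136 CPM, within the range of the other lines (0.19 ± 0.15).

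Among proteases and inhibitors, SERPINE2, an inhibitor of thrombin and plasminogen activators, was at 981 and 809 CPM against 8.01 to 83.8 (4.62 ± 0.16). MMP14, the membrane collagenase, was at 663 and 614 CPM against 20.2 to 474 (2.08 ± 0.16), and its inhibitor TIMP2 at 376 and 384 CPM against 50.7 to 178 (2.01 ± 0.17). Both calls were at the edge of the threshold, and without J82 in the reference the difference of MMP14 was 0.85 and not called. MMP2, the gelatinase they activate, was at 0.639 and 0.871 CPM, near the low lines and below the 93.3 and 97.8 CPM of RT112. ADAMTS12 was at 366 and 270 CPM against at most 8.51, and ADAMTS1, a versican-cleaving protease, at 0.639 and 0.799 CPM, as low as RT112 and below 253J (188 and 156) and J82 (637 and 611).

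In the TGF-beta family, whose ligands induce matrix genes, 6 of 29 genes were higher and 4 lower. TGFB2 was at 624 and 526 CPM, like J82 (498 and 487), against at most 4.92 in 253J and RT112, and TGFB1, with 14.1 and 13.9 CPM, was not called. The secreted activin antagonists FST, at 68.0 and 110 CPM against at most 3.83 (5.36 ± 0.34), and FSTL3, at 252 and 205 CPM against 19.7 to 75.5 (2.54 ± 0.11), were higher. The type III receptor TGFBR3 was lower, at 2.33 and 2.25 CPM against 25.9 to 113 (-4.49 ± 0.27).

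Of the 27 tested mesenchymal markers, VIM, MSN and GAS1 were lower and 20 were higher. THY1, the fibroblast surface antigen CD90, was at 406 and 372 CPM in TCCSUP and had no count in any of the 6 other libraries, which made it at least 3723-fold higher than 253J, 3898-fold than J82 and 4192-fold than RT112. FAP, fibroblast activation protein, was at 85.4 and 78.5 CPM against at most 0.442. PDGFRB, the receptor of pericytes and fibroblasts, was at 89.0 and 87.3 CPM, 2.54-fold above J82 (36.6 and 32.9) and without a count in 253J and RT112. N-cadherin, CDH2, was at 604 and 503 CPM and so at the level of 253J (502 and 498) and J82 (458 and 481), and its call rested on RT112 (4.49 and 4.23).

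Genes of the contractile apparatus were among the higher ones. TAGLN, transgelin, was at 340 and 373 CPM against 0.648 to 20 in the other lines (5.91 ± 0.12). ACTA2, smooth muscle actin, was at 78.6 and 80.3 CPM against 0.169 to 4.21 (6.22 ± 0.19), CNN1, calponin, at 59.4 and 67.7 CPM against at most 1.08, and ACTG2, the enteric smooth muscle actin, at 188 and 173 CPM against at most 0.0947. Of 14 smooth and skeletal muscle markers 6 could be tested, and 4 of these, ACTG2, LMOD1, SYNPO2 and ACTC1, were higher with both TCCSUP libraries above all 6 others (median log2 difference over the 6 5.01, or 3.50 with the floor). LMOD1, a leiomodin that nucleates actin filaments in smooth muscle, was at 8.83 and 8.64 CPM against at most 0.126, and SYNPO2, an actin-bundling protein of muscle, at 25.4 and 23.2 CPM against at most 11.8. The whole list summed to 265 to 286 CPM in TCCSUP, 85.2 to 89.1 in 253J, 56.6 to 74.8 in J82 and 19.2 to 20.6 in RT112. MYH11, DES, MYOCD, MYOD1 and MYOG, which define muscle, were among the 8 markers whose counts were too low to test. The part of muscle-like cells in these values was not tested.

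VIM, the intermediate filament of mesenchymal cells, was at 3.76 and 3.56 CPM in TCCSUP, at 1573 and 1229 in 253J, at 248 and 282 in J82 and at 0.667 and 0.158 in RT112. The log2 difference was -8.58 ± 0.34 from 253J, -6.18 ± 0.31 from J82 and 3.12 ± 0.40 from RT112 (edgeR quasi-likelihood test, Benjamini-Hochberg adjusted p = 9.21e-05). MSN, which encodes moesin, the linker of actin to the membrane, showed the same order, with 3.76 and 3.70 CPM in TCCSUP, 407 and 407 in 253J, 252 and 307 in J82 and 0.273 and 0.316 in RT112. GAS1 was the third lower marker, with at most 0.218 CPM against 0.410 to 11. CDH11, the cadherin of mesenchymal cells, had no count in any control library.

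Of 15 tested EMT transcription factors 7 were higher and 3 lower. TWIST1 was at 32.3 and 37.8 CPM in TCCSUP, 3.84-fold above 253J (9.71 and 8.53) and 8.31-fold above J82 (3.19 and 5.22), with no count in RT112. TCF4 was at 76.2 and 68.5 CPM against 10.0 to 19.7 in 253J and J82 and at most 0.0631 in RT112, FOXF1, a factor of visceral mesenchyme, at 28.2 and 32.1 CPM against 0.432 to 10.6 (3.83 ± 0.17), and PRRX1 at 2.55 and 3.27 CPM, a low level, against at most 0.555. Unlike TWIST1, the E-cadherin repressors ZEB1, ZEB2 and SNAI2 did not set TCCSUP apart from every other line. ZEB1 was at 24.3 and 24.4 CPM against 26.4 to 34.9 in 253J and J82, and was not called. ZEB2 was higher against the mean of the lines (3.83 ± 0.18), at 41.5 and 44.8 CPM between 253J (11.4 and 13.3) and J82 (68.2 and 61.0). SNAI2 was higher too (3.64 ± 0.23), at 16.6 and 18 CPM, near J82 and below RT112 (46.4 and 49.8). The lower ones were FOXF2, with no count in TCCSUP and at least 20.3-fold below 253J, and the T-box genes TBX2 and TBX3, of which TBX3 had 4 counts in TCCSUP against 5.26 to 37.9 CPM elsewhere.

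**Figure D4:**
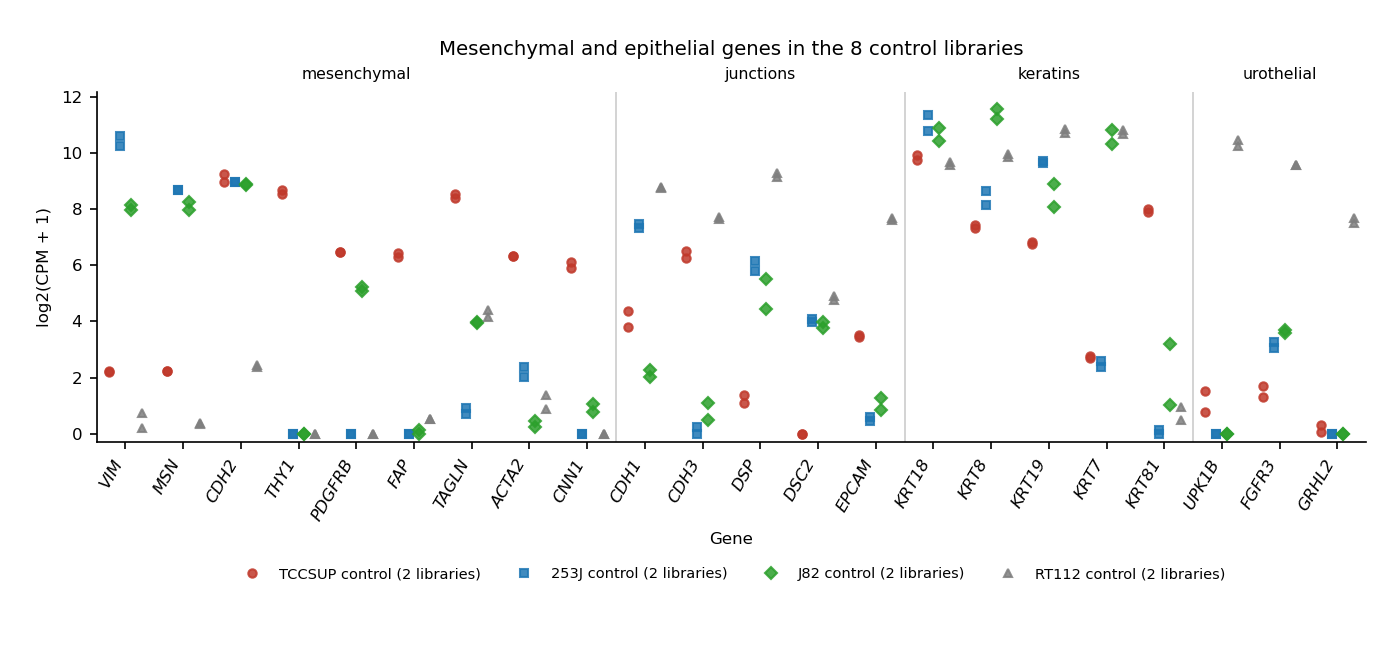
Level of mesenchymal, junction, keratin and urothelial genes (x axis) as log2(CPM + 1) (y axis) in each of the 8 control libraries, 1 point per library. TCCSUP is the line with THY1, FAP, ACTA2 and CNN1, lies with RT112 at the low end for VIM and MSN, and has the lowest points of all lines for DSP, DSC2, KRT8 and KRT19.

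Genes of epithelial adhesion did not all lie on the same side. Over the 40 junction and polarity genes, the summed level was 1122 to 1200 CPM in TCCSUP, close to J82 (965 to 1045) and below 253J (2949 to 3019) and RT112 (8005 to 8164), and 8 of the 40 had no count in either TCCSUP library. E-cadherin, CDH1, was at 19.6 and 12.9 CPM, with log2 differences of -3.38 ± 0.21 from 253J (178 and 161), -4.74 ± 0.22 from RT112 (427 and 440) and 2.25 ± 0.22 from J82 (3.02 and 3.82), and it was not called against the mean of the 3 lines (-1.96 ± 0.18). P-cadherin, CDH3, was at 89.0 and 75.9 CPM, below the 212 and 202 CPM of RT112 and above 253J and J82, which had at most 1.15. EPCAM, at 9.81 and 10.4 CPM, lay in the same way between RT112 (197 and 205) and the other lines (0.371 to 1.44).

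Desmosome genes were among the lower ones. DSC2, a desmosomal cadherin, had no count in either TCCSUP library and was at 12.8 to 29.1 CPM in the others, at least 124-fold lower than in J82. DSP, desmoplakin, which ties desmosomes to keratin, was at 1.62 and 1.13 CPM against 54.2 and 70.1 in 253J, 45.0 and 21.0 in J82 and 561 and 627 in RT112 (-6.28 ± 0.39). CGN, cingulin of tight junctions, was lower too (1.69 and 0.98 CPM against 6.07 to 26.7). JUP and PKP2 of desmosomes and TJP1 and OCLN of tight junctions lay within the range of the other lines and were not called. Of the 20 epithelial regulators 2 were lower, ESRP2 and ELF3, and none was higher; GRHL2, the keeper of the epithelial state, was at 0.0376 and 0.254 CPM against 181 and 206 CPM in RT112 and no count in 253J and J82, so that its absence was shared.

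Of 24 tested keratins 2 were higher and 4 lower. KRT18 was at 854 and 985 CPM, within the range of the other lines (764 to 2603) and not called (-0.63 ± 0.19). Its filament partner KRT8 was at 170 and 160 CPM against 286 to 3059 (-2.54 ± 0.19), and KRT19 at 106 and 113 CPM against 270 to 1852 (-2.90 ± 0.23). KRT7 was at 5.45 and 5.84 CPM, as low as 253J (4.21 and 5.04) and far below J82 (1271 and 1789) and RT112 (1637 and 1794). The hair keratin KRT81 was higher, at 257 and 236 CPM against at most 8.10, 54.7-fold above J82, and its near-identical neighbour KRT86 was at 5.56 and 5.41 CPM, values that are uncertain because reads could be split between them.

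Of 15 tested urothelial differentiation genes 2 were higher and 2 lower, beside 11.4% and 4.48% over all tested genes. Neither higher gene lay outside the range of the other lines. All 16 of the list summed to 41.5 to 53.0 CPM in TCCSUP, to 38.0 to 51.9 in 253J and J82 and to 3052 to 3291 in RT112. UPK1B, a uroplakin of the umbrella cell membrane, was at 1.84 and 0.726 CPM in TCCSUP, at 1204 and 1413 CPM in RT112 and without a count in 253J and J82. UPK2 had no count in TCCSUP, and neither had KRT20, the keratin of umbrella cells. FGFR3, a growth factor receptor of urothelial tumours, was at 1.5 and 2.25 CPM, below 253J and J82 (7.25 to 12) and RT112 (769 and 752). GATA3, at 5.18 and 6.75 CPM, and PPARG, at 88.7 and 79.9 CPM, factors of luminal urothelium, were above 253J and J82 and below RT112, and neither was called. Against the labelled origin, uroplakins were at or near 0 in TCCSUP, while keratins and these factors were present.

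Markers of other cell types were followed beside these results. In bulk RNA a lower level in every cell and a lower share of cells with the gene cannot be told apart. Of 14 leukocyte markers 9 had no count in TCCSUP, the sum was 38.4 to 39.8 CPM against 4.17 to 65.2 in the other lines, and the defining markers CD3E and MS4A1 were too low to test. Of 6 tested leukocyte markers 3 were higher, each with both TCCSUP libraries above all 6 others, and 1, ITGAM, was lower. PTPRC, the leukocyte antigen CD45, was at 8.19 and 9.98 CPM in TCCSUP against at most 0.410. CD14, the myeloid receptor for lipopolysaccharide, was at 11.1 and 9.87 CPM against at most 3.8, and CSF1R, the receptor of macrophage growth factor, at 0.564 and 0.472 CPM, a low level, against at most 0.189. Of 8 tested endothelial markers 2 were higher, TEK and ROBO4. The 12 markers of the list summed to 11 to 159 CPM in the other lines and to 189 to 222 CPM in TCCSUP, where almost all of it was TEK, the angiopoietin receptor, at 214 and 183 CPM against at most 2.60, while PECAM1 had 2 counts in TCCSUP. The part of such cells in the results was not tested.

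Of 18 tested neural and neuroendocrine genes 11 were higher and 1 was lower, and 12 of the 30 listed, among them CHGA, SYN1 and INSM1, had counts too low to test. UCHL1, a neuronal deubiquitinase, was at 279 and 308 CPM against 2.47 and 2.71 in J82, at most 0.316 in RT112 and no count in 253J, 113-fold above J82. SCG2, a secretory granule protein, was at 188 and 172 CPM against 15.4 and 19.5 in J82 and at most 0.742 elsewhere (7.07 ± 0.15), and SNAP25, of synaptic vesicle fusion, at 21.6 and 20.5 CPM, 13.1-fold above 253J and without a count in J82 and RT112. MAPT, the tau protein, was the lower one. SYP, synaptophysin, was at 0.789 and 1.31 CPM, within the range of the other lines, and was not called.

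Of 44 tested receptor tyrosine kinases 10 were higher and 9 lower. Beside DDR2, PDGFRB and TEK, the higher ones included FGFR1, at 205 and 192 CPM, which was near 253J and J82 (113 to 166) and differed from RT112 (1.55 and 2.40). ERBB3, the partner receptor of epithelial ERBB2, was lower, at 1.69 and 0.762 CPM against 7.21 to 197 (-4.64 ± 0.30). EGFR, at 339 and 347 CPM, was above the other lines (152 to 297) by 0.38 ± 0.18 and not called, and ERBB2 and MET were not called. Of 15 surface proteins that drugs target, PDCD1LG2 and MSLN were higher against the mean of the lines but not called against J82, which differed by 0.09 ± 0.37 and -0.66 ± 0.29. CD274, the gene for PD-L1, was at 42.1 and 41.9 CPM between J82 (78.5 and 66.6) and the others (2.18 to 7.27), a difference of 1.92 ± 0.12 that was not called.

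Of 42 interferon-induced genes 19 were higher and none was lower against the mean of the lines, but the result depended on the line. There were 25 higher and 1 lower against 253J, 31 higher and none lower against RT112, and 1 higher and 15 lower against J82. The background shares of these comparisons were 11.5% higher and 10.2% lower against 253J, 12.4% and 9.78% against RT112, and 9.95% and 6.29% against J82. MX1, an antiviral GTPase, was at 314 and 249 CPM in TCCSUP, at 1047 and 994 in J82 and 2.52 to 8.61 in the other lines. IFITM2, a membrane protein against virus entry, was the gene above J82, at 14.3 and 16.2 CPM against at most 0.847 in any other library.

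Of 28 tumour suppressors and cell cycle inhibitors 5 were higher and 3 lower. FAT1, an atypical cadherin, was at 10.7 and 9 CPM in TCCSUP against 393 to 1999 in the others (-6.91 ± 0.26). RB1, at 24.7 and 21.4 CPM against 46.3 to 82.3, was below every other library but not called (-1.41 ± 0.14). CDKN2A, the gene of p16, was at 81.0 and 77.8 CPM, below J82 (115 and 157), and with no count in 253J and RT112. Of the 28 proliferation genes 27 were not called, with a median difference of -0.19, MKI67 being at 318 and 371 CPM against 118 to 348, and MCM2, a replication helicase subunit, was lower at 97.1 and 107 CPM against 246 to 1115.

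HOX genes record position along the body axis. Of 37 tested, 12 were higher and 1 was lower. HOXA11 was at 16.4 and 16.5 CPM against at most 0.849 elsewhere, 20.2-fold above J82, and HOXC12 was at 1.16 and 1.09 CPM and had no count in any other line. HOXA9, at 17.3 and 18 CPM, was below 253J (40.0 and 28.4) and above the other lines, and HOXA13 and HOXB13 were not called.

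Among calls with both TCCSUP libraries outside the range of the others, the 12 genes furthest above and the 12 furthest below the nearest other line were named. The higher ones were THBS2, A2M, THY1, ACTG2, PCSK1, DCN, PTN, SPANXA1, LRRC17, SPANXA2, IL13RA2 and DNM3OS. A2M, the secreted protease inhibitor alpha-2-macroglobulin, was at 428 and 522 CPM and had no count in the other lines, at least 4555-fold above 253J. PCSK1, a prohormone convertase, was at 145 and 139 CPM against at most 0.108, PTN, the growth factor pleiotrophin, at 164 and 178 CPM against at most 0.284, and IL13RA2, the decoy receptor of interleukin 13, at 308 and 253 CPM against at most 0.742. SPANXA1 and SPANXA2, cancer-testis genes of nearly identical sequence whose separate values are uncertain, were at 77.2 and 99.1 and at 67.1 and 83.5 CPM with no count elsewhere. DNM3OS, a noncoding RNA antisense to DNM3, was at 50.9 and 56.7 CPM with no count elsewhere, and whether the counting used strand was not given in the sources used here.

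The lower ones were COL4A5, DAPK1, LPIN3, HOOK1, RADX, HPS1, TBX3, DSC2, CDCA7L, CELSR1, MFAP3L and MGAT4A. DAPK1, a death-associated kinase, was at 0.225 and 0.436 CPM against 97.2 to 177 in the other lines, 302-fold below RT112. HPS1, a subunit for making lysosome-related organelles, had no count in TCCSUP and 14.5 to 20.9 CPM elsewhere. HOOK1, a microtubule linker of vesicles, was at 0 and 0.254 CPM against 26.4 to 50.2, and CELSR1, an atypical cadherin of planar polarity, at 0.15 and 0 CPM against 7.31 to 149. RADX, of replication fork protection, had 9 counts in TCCSUP against 1538 or more in every other line.

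Position in the genome was not used by the comparison. Of the tested genes, 17910 could be placed in RefSeq's gene order, and 20 runs of at least 5 neighbouring tested genes had every gene called the same way, 19 of them higher, with 123 genes in all. Over all tested genes 11.4% were called higher and 4.48% lower. Genes too low to test were skipped in this order. Members such as XAGE1A, ZNF98 and SPANXA1 had no count in the other lines. They passed the filter through TCCSUP alone, so only a higher call was open to them, and the runs are a description. The longest held 13 genes and pseudogenes on chromosome 14, from NEK2P3 to NF1P4 with POTEM and POTEG, many of which belong to multigene families whose reads could be split. A run of 9 zinc finger genes on chromosome 19 went from ZNF676 to ZNF730, and 3 runs on the X chromosome held cancer-testis genes. Of the last, 1 went from MAGED4B to SSX2B, 1 from PASD1 to MAGEA6 and 1 from SPANXA1 to MAGEC2. MAGEC2 was at 53.9 and 65.4 CPM in TCCSUP against at most 0.271 elsewhere.

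Runs at genes described above were those of HOXA9, HOXA10-AS, HOXA10, HOXA11 and HOXA11-AS on chromosome 7 and of FOXF1 and its divergent noncoding neighbour FENDRR with 3 others on chromosome 16. FENDRR was at 34.8 and 32 CPM against at most 2.20. A run on chromosome 9 from MIR31HG to CDKN2B, with MTAP and CDKN2A, held 6 genes, none of them outside the range of the other lines. In it MTAP was at 80.3 and 88.9 CPM, at 144 and 191 in J82, at 13.5 and 14.9 in 253J and without a count in RT112.

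The only lower run was SORBS2, TLR3, FAM149A, FLJ38576 and CYP4V2 on chromosome 4, each with both TCCSUP libraries below all others. TLR3, a sensor of double-stranded RNA, was at 0.827 and 1.02 CPM against 11.4 to 63.9, and SORBS2, an actin adaptor, had no count in TCCSUP against 1.08 to 3.75. FAT1, described above, was next but 1 to the end of this run in the order of tested genes. The tested gene between them, KLKB1, had 0 counts in TCCSUP and at most 1.37 CPM elsewhere, and was not called.

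The libraries of cells given CM-1758 share no library with the controls and gave the same contrast a second time, under drug. There TCCSUP was higher for 2211 of 20256 tested genes (10.9%) and lower for 506 (2.5%). Of the 1976 genes higher in control and tested there, 1101 were called higher again, which was 52.7% of the 2089 control calls and 49.8% of the treated calls, and 5 were called lower. Of the 815 lower ones 257 were called lower again (31.3% of the control calls and 50.8% of the treated calls) and 5 were called higher. The median difference of the higher genes was 4.4 in control and 2.38 under drug on the log2 scale, without the floor at 3 counts. That of the lower genes was -4.49 and -1.30. These genes were chosen for a large difference in control, which by itself favours a smaller median in any other libraries. The part of the drug was not tested.

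Matrix genes were split in whether the call was kept. THBS2 was still at 291 and 253 CPM in treated TCCSUP against at most 0.806, DDR2 at 47.4 and 59.9 CPM against at most 3.70, and COL6A3 at 69.5 and 99 CPM against at most 34.7. COL1A1, at 107 and 105 CPM against 10.3 to 25.7, and COL1A2, at 292 and 258 CPM against 176 and 117 in J82, were called higher again. COL4A1 (-5.07 ± 0.42) and COL4A2 (-4.90 ± 0.39) were lower as before, and COL4A5, with at most 0.321 CPM, was lower too. VIM and MSN were lower again, at 15.6 and 15.9 and at 1.28 and 0.933 CPM, against 142 to 1551 and 125 to 186 in 253J and J82.

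Other genes did not keep their call. FN1 was at 2027 and 1647 CPM in treated TCCSUP, within 971 to 4030 in the other treated lines (-0.04 ± 0.14), ACTA2 at 2.17 and 2.42 CPM within 0.548 to 4 (0.20 ± 0.26), and COL3A1 at 10.8 and 8.99 CPM against 1891 and 1877 in J82. TAGLN, at 13.1 and 8.01 CPM, was within the range of the other treated lines. LAMA1, lower in control, was at 227 and 312 CPM against 30.3 to 192 under drug and not called (1.5 ± 0.15). The difference between the contrasts in control and under drug was not tested for any gene. Each line had its own dose.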

How the data were processed

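RNA-seq counts of 16 libraries were used, of which 8 were controls. Per the labels and the study's methods, total RNA was made into stranded ribosome-depleted libraries, and the submitters' processing notes name HISAT2, StringTie and GRCh37 (versions, and the counting tool with its strand setting, are not given in the sources used here). The authors deposited raw read counts per gene, 35993 genes, without normalization. Counts were fitted in R 4.3.3 with edgeR 4.0.16 (TMM, filterByExpr at its default minimum count of 10, quasi-likelihood test with Benjamini-Hochberg adjustment over 18307 genes, 4 residual degrees of freedom), with 1 group per line. The contrast was TCCSUP minus the mean of the 3 other line means, beside each line alone and the same contrast in the 8 treated libraries. Values after ± are approximate SEs, the size of the log2 difference divided by the square root of the test's F statistic. They are rough where a line had no count. Per the study's methods, the 2 libraries of each line and condition were independent biological replicates. On data simulated for the TCCSUP contrast, 194 of 200 genes changed 8-fold were recovered, with 1 false call among the unchanged genes of 18307. The changed genes had a mean above 1 CPM, and all lines shared 1 mean for every other gene. The real lines differ from one another, so the simulation checks the procedure and gives no error rate for these data. Where a group had no count, folds are lower bounds at 3 counts per library; with 1 to 3 counts, or where so stated, a ratio has a 95% counting interval, which covers counting error only.

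The comparison, the gene lists and the named genes were chosen with earlier results of these data known. Named genes are the 12 furthest above and the 12 furthest below the nearest other line among calls outside the range of the others, a set of key genes of the lists, and up to 4 called members of each list by size of change; further genes were chosen after their values were seen. Sex-linked XIST and Y genes were left out. RefSeq GRCh38.p14 tables gave gene order (17956 tested genes matched by name) and promoter sequences, with their own coordinates; it is not the build of the files. Alternatives covered normalization, tool (DESeq2 1.42.0, limma 3.58.1), filters, libraries, reference lines, replicate block, depth and thresholds.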

Additional observations from a re-analysis of the deposited data

How the results depend on the processing

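Across the alternatives, 527 of the 566 values for counts of calls, list counts and runs stayed within 1.5 times the reported count, and the limits of the rest follow. Requiring at least 10 counts in every library, which removes genes at 0 in any line, left 347 higher and 237 lower calls against the mean of the lines, and 270 and 204 outside the range of the others. It left as higher 1 EMT transcription factor, 7 mesenchymal markers, 2 fibrillar collagens, 2 other collagens, 3 collagen processing genes, 11 glycoproteins, 2 integrins, 8 proteases, 0 junction genes, 2 receptor tyrosine kinases, 1 HOX gene, 8 interferon-induced genes, 2 tumour suppressors and 3 neural genes, and as lower 3 other collagens, 3 junction genes and 3 receptor tyrosine kinases. An adjusted p below 0.05 with a log2 difference beyond 1 gave 3460 higher and 1770 lower calls, 2070 and 1197 of them outside the range, with 19 collagen processing genes and 11 integrins higher and 11 junction genes lower. limma-voom gave 1299 lower calls and 12 lower junction genes. Without 253J in the reference 1 junction gene and 8 interferon-induced genes were higher, without J82 there were 1070 lower calls outside the range and 13 lower junction genes, and without RT112 10 junction genes were higher and 3 lower. Leaving out 1 library at a time gave 4 to 8 lower junction genes, 4 of them without TCCSUP control replicate 2. Runs numbered 49 at 4 genes or more and 11 at 6 or more. Signs turned for genes that were not called: P4HB was at 0.35 without 253J and between -0.14 and 0.037 with 1 library left out, DDR1 at -0.47 without J82, PPIB at -0.16 without RT112, PDCD1LG2 against J82 at -0.31 with the replicate block and between -0.14 and 0.39 with 1 library left out, and FN1 among treated libraries at 0.046 with library size alone, 0.0064 with the replicate block and between -0.21 and 0.11 with 1 library left out. The cause was not tested. Deviations of libraries from the mean of their line correlated at -0.154 to 0.0493 between same-numbered libraries of different lines. The 2 deviations of a line are equal in size and opposite in sign, so these values are not all independent. Whether the numbers pair libraries was not settled by them. With the replicate block there were 1739 higher and 678 lower calls.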
